A study of Arabidopsis thaliana with 4 samples.

Results

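The data describe 10 genes of the class III peroxidase family of Arabidopsis thaliana by their hy5 against wild type ratios on 4 two-colour arrays. They are AT3G49960, AT5G64120 (PRX71), AT2G37130, AT3G28200, AT5G39580, AT5G64100, AT3G01190, AT4G36430, AT5G17820 and AT1G71695. The 10 genes were selected on these same ratios, for values that lay on opposite sides of 0 in different family members, so their ratios are given as a description and no test is attached to them. A list of 73 family loci was compared with the platform annotation, and 24 of these loci could be named on the array. The 10 genes are therefore 10 of 24 family members named on the array and 10 of 1801 named genes in all. Most probes have no name here, so further family loci may have been on the array.

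Class III peroxidases are secreted haem enzymes found in large families in plants. With hydrogen peroxide they oxidise phenolic compounds and cell wall proteins, which stiffens the wall and builds lignin and suberin. They can also produce reactive oxygen species, which loosens wall polymers, and many members are expressed in roots. PRX71 (AT5G64120) is a cell wall peroxidase known in Arabidopsis for limiting cell expansion.

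Plants of the hy5 mutant and of the wild type had grown for 4 days under continuous white light, and total RNA was taken from both. HY5, a transcription factor of the bZIP class, drives the light-dependent development of seedlings. The sources used here give no allele, ecotype or tissue. Each array carried both genotypes, with hy5 in Cy3 and wild type in Cy5 on replicates 1 and 2, and hy5 in Cy5 and wild type in Cy3 on replicates 3 and 4. The study asked which transcripts differ between hy5 and wild type.

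Replicates 1 to 4 had values for 25007, 26739, 25057 and 18004 of 27648 probes, so replicate 4 was the emptiest array, with 34.9% of its probes lacking a value. Over all features, arrays of the same dye orientation correlated with Pearson's r of 0.229 to 0.264, and arrays of opposite orientation with r of -0.049 to 0.080. The sources used here do not say whether the deposited ratios had been turned to 1 direction, so the ratios of the genes are given in both readings. In the first reading the log2 ratios stand as deposited, and a difference between genotypes has 1 sign on the 4 arrays. In the second reading replicates 1 and 2 are multiplied by -1, and a difference between genotypes appears as a deposited ratio that changes sign with the dyes. On this turned scale a positive ratio means more transcript in hy5 than in wild type where Cy5 was divided by Cy3, and less where Cy3 was divided by Cy5. Neither is stated, so members are placed on the positive or negative side and none is called higher or lower in hy5. If the columns had been turned already, a sign that changes with the dyes is a difference between dyes, and for a single gene dye and genotype cannot be told apart here.

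Of the 10 genes, 9 changed sign with the dyes in the deposited ratios, and fell into 2 sets of opposite order. AT3G49960, AT5G64120, AT2G37130 and AT3G28200 were positive on both arrays with hy5 in Cy3 and negative on both arrays with hy5 in Cy5. AT5G64100, AT3G01190, AT4G36430, AT5G17820 and AT1G71695 were negative on both arrays with hy5 in Cy3 and positive on both with hy5 in Cy5. AT5G39580 followed neither order. After turning, 4 members were thus negative on every array and 5 were positive on every array, where 10.7% and 10.9% of all 16577 features with 4 values were. As deposited, 0 members were positive and 0 negative on every array, beside 8.83% and 10.3% of these features. The members were chosen by these ratios, so the shares give scale only.

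**Figure D1:**
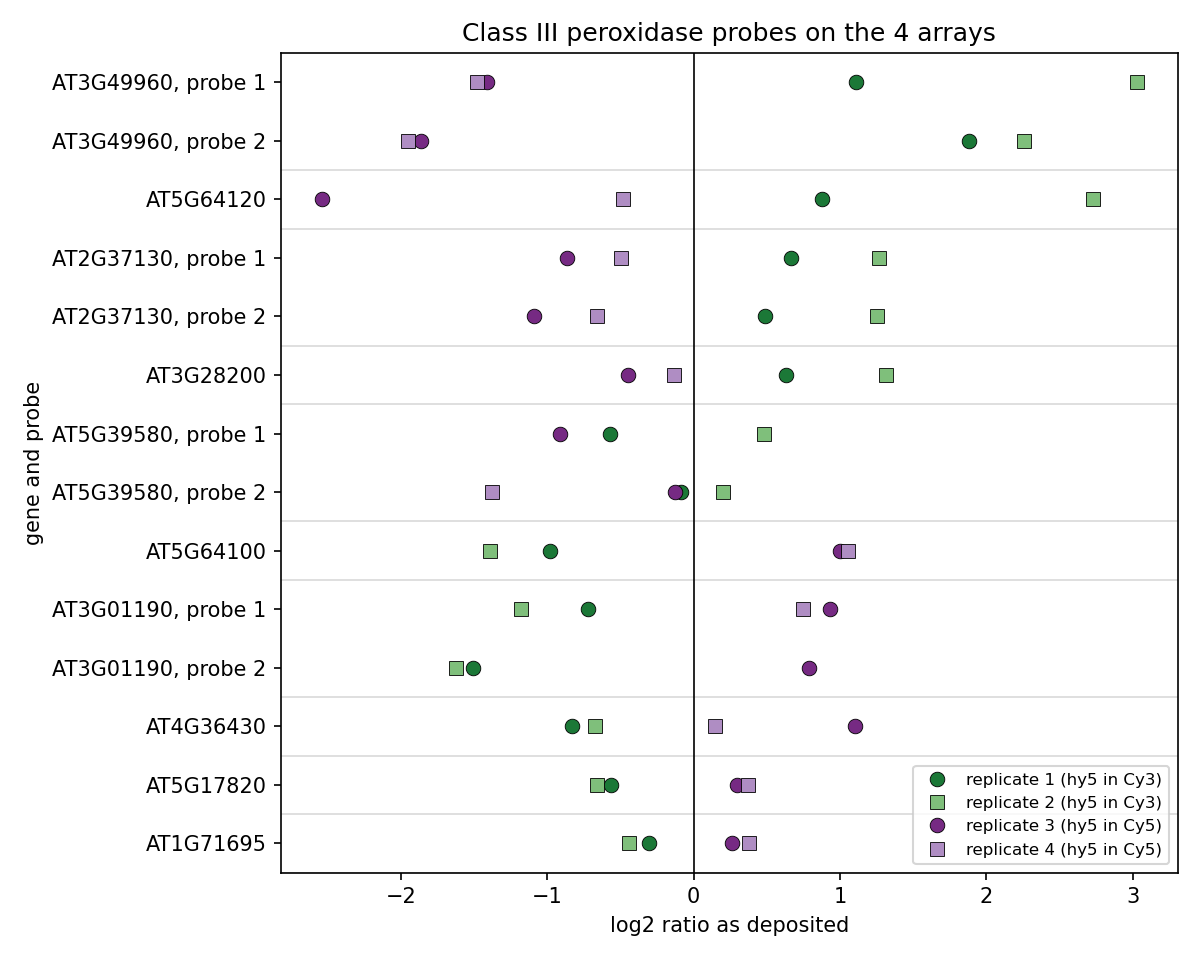
Deposited log2 ratios (horizontal axis) of the 14 probes of the 10 peroxidase genes (vertical axis), with 1 point per array. Green points are the arrays with hy5 in Cy3 and purple points those with hy5 in Cy5, and for 12 of the 14 probes the green and purple points lie on opposite sides of 0, the exceptions being both probes of AT5G39580.

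AT3G49960 had the largest turned mean in size of the 10. Its first probe read 1.11, 3.03, -1.41 and -1.48 on replicates 1 to 4 as deposited, and its second probe read 1.88, 2.26, -1.86 and -1.95. Both probes thus showed the same order, with replicate 2 the farthest from 0. The gene mean was 0.20 ± 2.21 as deposited and -1.87 ± 0.52 turned (SD, n = 4), a 3.66-fold difference after turning. The first probe varied more between arrays than the second once turned, with -1.76 ± 0.86 and -1.99 ± 0.18 (SD, n = 4 each). Of all 24153 features on at least 3 arrays, 1.08% had a turned mean of at least this size and 55.8% a deposited mean of at least its deposited size.

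AT5G64120 (PRX71) reached ratios as large as AT3G49960 on some arrays but was less even. Its 1 probe read 0.88, 2.73, -2.54 and -0.48 on replicates 1 to 4 as deposited. Replicates 2 and 3 were both beyond 2 in size, while replicates 1 and 4 were both within 1 of 0, so arrays of the same dye orientation lay 1.85 and 2.06 apart. The mean was 0.15 ± 2.22 as deposited and -1.66 ± 1.14 turned (SD, n = 4), a 3.15-fold difference after turning. With each array left out in turn, the mean lay between -2.05 and -1.30 turned and between -0.71 and 1.04 as deposited.

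AT2G37130 had smaller ratios that its pair of probes repeated closely. The first probe read 0.67, 1.27, -0.86 and -0.50 on replicates 1 to 4 as deposited, and the second 0.49, 1.25, -1.09 and -0.66. On no array did the probes differ by more than 0.225, less than the gap of 0.40 to 0.68 between arrays of the same dye orientation. The gene mean was 0.07 ± 1.03 as deposited and -0.85 ± 0.33 turned (SD, n = 4), a 1.80-fold difference after turning.

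AT3G28200, with 1 probe, read 0.63, 1.31, -0.45 and -0.14 as deposited. Replicate 2 was again the largest and replicate 4 lay close to 0. The mean was 0.34 ± 0.79 as deposited and -0.63 ± 0.50 turned (SD, n = 4). Without replicate 2 these means were 0.02 and -0.41, so that array decided much of both.

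AT5G39580 went against the description of the group. Its first probe read -0.57, 0.48 and -0.91 on replicates 1 to 3 and had no value on replicate 4, and its second probe read -0.09, 0.20, -0.13 and -1.38. The probes agreed in sign wherever both had a value, but only replicate 2 was positive as deposited. The gene mean, -0.47 ± 0.71 as deposited and -0.48 ± 0.70 turned (SD, n = 4), was almost the same in both readings, and its SD was larger than its mean in each. The value on replicate 4 came from 1 probe alone and was the largest of the 4. Without that array the means were -0.17 as deposited and -0.18 turned.

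On the positive side of the turned scale, AT5G64100 had the largest mean and little spread. Its 1 probe read -0.98, -1.39, 1.001 and 1.05 on replicates 1 to 4 as deposited. Every array was close to or beyond 1 in size, and the sign followed the dyes. The mean was -0.08 ± 1.29 as deposited and 1.11 ± 0.19 turned (SD, n = 4), a 2.15-fold difference after turning, and 4.78% of all features had a turned mean of at least this size. For the deposited mean this share was 80.4%.

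AT3G01190 had nearly the same profile. Its first probe read -0.72, -1.18, 0.93 and 0.75 on replicates 1 to 4 as deposited, and its second read -1.51, -1.62 and 0.79 on replicates 1 to 3, with no value on replicate 4. The probes differed by up to 0.783, on replicate 1, and agreed in sign on the 3 arrays they shared. The gene mean was -0.23 ± 1.20 as deposited and 1.03 ± 0.29 turned (SD, n = 4), a 2.04-fold difference after turning.

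The other 3 genes of the positive side were each read by 1 probe. AT4G36430 read -0.83, -0.67, 1.10 and 0.15 on replicates 1 to 4 as deposited, so that replicate 4 was close to 0 while the other 3 were not. Its mean was -0.06 ± 0.89 as deposited and 0.69 ± 0.40 turned (SD, n = 4). AT5G17820 read -0.57, -0.66, 0.30 and 0.37 on the same arrays, with both values of each dye orientation close together. Its mean was -0.14 ± 0.55 as deposited and 0.47 ± 0.17 turned (SD, n = 4).

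AT1G71695 had the smallest mean and the smallest SD of the 10 in both readings. It read -0.31, -0.44, 0.26 and 0.38 on replicates 1 to 4 as deposited, with all 4 within 0.5 of 0. Its mean was -0.03 ± 0.41 as deposited and 0.35 ± 0.08 turned (SD, n = 4), a 1.27-fold difference after turning. Of all features, 35.5% had a turned mean of at least this size and 93.2% a deposited mean of at least its deposited size.

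**Figure D2:**
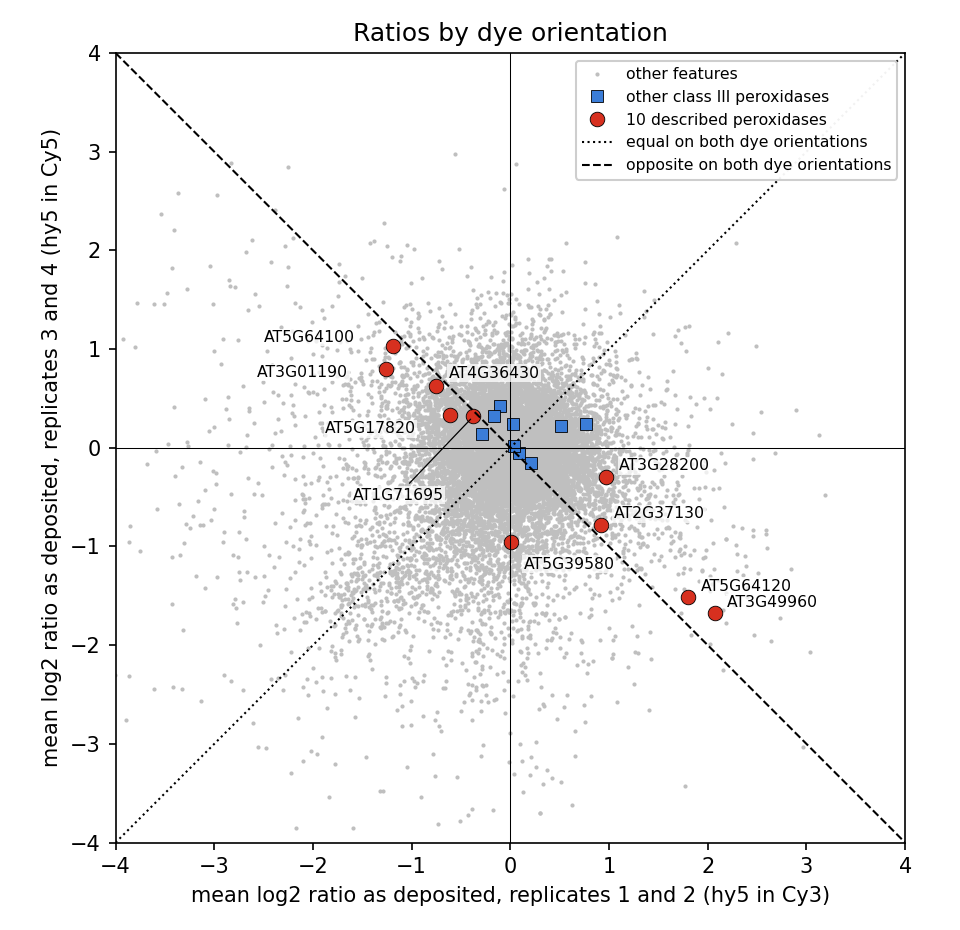
Mean deposited log2 ratio of replicates 1 and 2 (horizontal axis, hy5 in Cy3) against that of replicates 3 and 4 (vertical axis, hy5 in Cy5) for features with all 4 values, 48 of which lie outside the axes. The 10 peroxidases (red circles) lie along the dashed line of opposite ratios, apart from AT5G39580 at 0.01 and -0.95 and AT3G28200 at 0.97 and -0.29, and the 9 other family genes with 4 values (blue squares) include AT4G11290 at 0.76 and 0.24, farther from the centre than AT5G17820 and AT1G71695.

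Ordered by their turned means, the 10 genes ran from AT3G49960 (-1.87) through AT5G64120 (-1.66), AT2G37130 (-0.85), AT3G28200 (-0.63) and AT5G39580 (-0.48) to AT1G71695 (0.35), AT5G17820 (0.47), AT4G36430 (0.69), AT3G01190 (1.03) and AT5G64100 (1.11). Each gene's range over the arrays overlapped that of its neighbours in this order, so neighbours did not differ beyond their spread. The ends of the order did not overlap, with AT3G49960 between -2.64 and -1.49 and AT5G64100 between 0.98 and 1.39 on the turned scale. Genes were chosen for lying on opposite sides of 0, so this gap was built in by the choice. Replicate 2 gave a larger ratio in size than replicate 1 in 9 of the 10 genes, AT4G36430 being the exception. Over all probes, replicate 2 also had the larger SD, 1.11 against 0.87, while the median absolute deviation was 0.37 on both. The share of all features with a larger ratio on replicate 2 was not counted, so whether the 9 of 10 is particular to these genes was not tested. Replicate 3 was larger than replicate 4 in 5 of 10, again without a share over all features.

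The median size of the mean ratio was 0.77 turned and 0.14 as deposited over the 10 genes, against 0.24 and 0.23 over all features on at least 3 arrays. After turning, 2 members (AT5G64100 and AT3G01190) had a mean of 1 or more and 2 (AT3G49960 and AT5G64120) a mean of -1 or less, where 2.97% and 3.12% of all features did. As deposited 0 members had a mean of 1 or more in size, beside 7.21% of all features, and their folds ran from 1.02 to 1.39. The members were chosen by their ratios, so these sizes and counts give scale only. In the fit across all features with limma, 0% of the 24153 features passed an adjusted p of 0.05 in either reading, and so 0 of the 10 members did. At an unadjusted p under 0.05 the fit gave 1829 features as deposited and 2122 turned. No variance moderation also gave 0 features after adjustment, with 1752 and 2191 before it.

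The 4 members with 2 probes show how far probes of 1 gene agreed. Over the 14 array readings in which both probes had a value, they had the same sign in 14 and differed by a median of 0.447. Over the 45 named genes with exactly 2 probes, the members included, the median difference was 0.425 in 138 readings and the signs were equal in 55.1%. The median difference between probes of a member was thus close to that over all such genes. The members were chosen by these same ratios, which favours equal signs, so the 14 of 14 is no test of their probes. Whether paired probes carry the same oligonucleotide is not given in the sources used here, and cross-hybridisation between family members was not tested.

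A pair of members stand in 1 row on the chromosome with opposite signs. AT5G64100, AT5G64110 and AT5G64120 are adjacent class III peroxidase genes with 0 other protein-coding genes between them in the TAIR10.1 gene order. The outer genes differed in every array: after turning, AT5G64100 read 0.98, 1.39, 1.001 and 1.05 on replicates 1 to 4 and AT5G64120 read -0.88, -2.73, -2.54 and -0.48. The members were chosen for lying on opposite sides of 0, which favours opposite signs in such a pair. The middle gene, AT5G64110, was not analysed here. No other pair among the 10 genes stood this close.

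The other 14 family genes named on the array, taken from the locus list, had a smaller median size when turned and overlapped the members. Their means lay between -0.26 and 0.66 turned and between -0.29 and 0.50 as deposited, and the median size was 0.18 turned and 0.10 as deposited. AT4G11290, at 0.50, was larger in size as deposited than any of the 10, and AT1G49570, at 0.66, was larger when turned than 4 of them. None had a turned mean beyond 1 in either direction. Because the 10 genes were picked from the family by their ratios, this contrast was built in by the choice and is no test.

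Some of these family genes lay just below the members in size with the same order of signs. AT5G14130 read -0.20, -0.13, 0.20 and 0.44 on replicates 1 to 4 as deposited, and AT4G37520 read -0.33, -0.25, 0.17 and 0.12. Both changed sign with the dyes like AT1G71695, at turned means of 0.24 ± 0.14 and 0.22 ± 0.09 (SD, n = 4 each). AT1G68850 did so on its 3 arrays in the opposite order, at 0.21, 0.24 and -0.33 on replicates 1 to 3, with a turned mean of -0.26 ± 0.06 (SD, n = 3).

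Other family genes showed no such order. AT4G11290 was positive on all 4 arrays as deposited, at 1.22, 0.30, 0.15 and 0.32, with a mean of 0.50 ± 0.49 (SD, n = 4) that became -0.26 ± 0.69 turned. AT2G38380 and AT5G40150 also kept 1 sign as deposited, on 3 arrays each, with means of -0.29 ± 0.18 and 0.38 ± 0.29 (SD, n = 3 each), and -0.03 ± 0.40 and -0.18 ± 0.50 turned. AT1G49570 had the largest turned mean of the 14, 0.66 ± 0.69 (SD, n = 3), with signs that were mixed in both readings.

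The remaining 7 were AT1G44970, AT2G18980, AT3G21770, PRXR1 (AT4G21960), AT4G30170, AT5G19890 and AT5G66390 (PRX72). PRXR1 and AT2G18980 stayed close to 0 on each of their 4 arrays, with means of 0.03 ± 0.18 and 0.02 ± 0.14 as deposited and -0.01 ± 0.18 and -0.07 ± 0.11 turned (SD, n = 4 each). PRX72 had 0.03 ± 0.27 as deposited and -0.18 ± 0.17 turned (SD, n = 4). AT1G44970, AT4G30170 and AT5G19890 had 0.26 ± 0.34, -0.15 ± 0.73 and 0.11 ± 0.31 turned (SD, n = 4 each). As deposited these 3 had 0.16 ± 0.42, 0.37 ± 0.61 and 0.13 ± 0.30 (SD, n = 4 each). AT3G21770 had 0.01 ± 0.59 as deposited and -0.04 ± 0.58 turned (SD, n = 3). In each of these 7, the values took both signs in both readings.

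**Figure D3:**
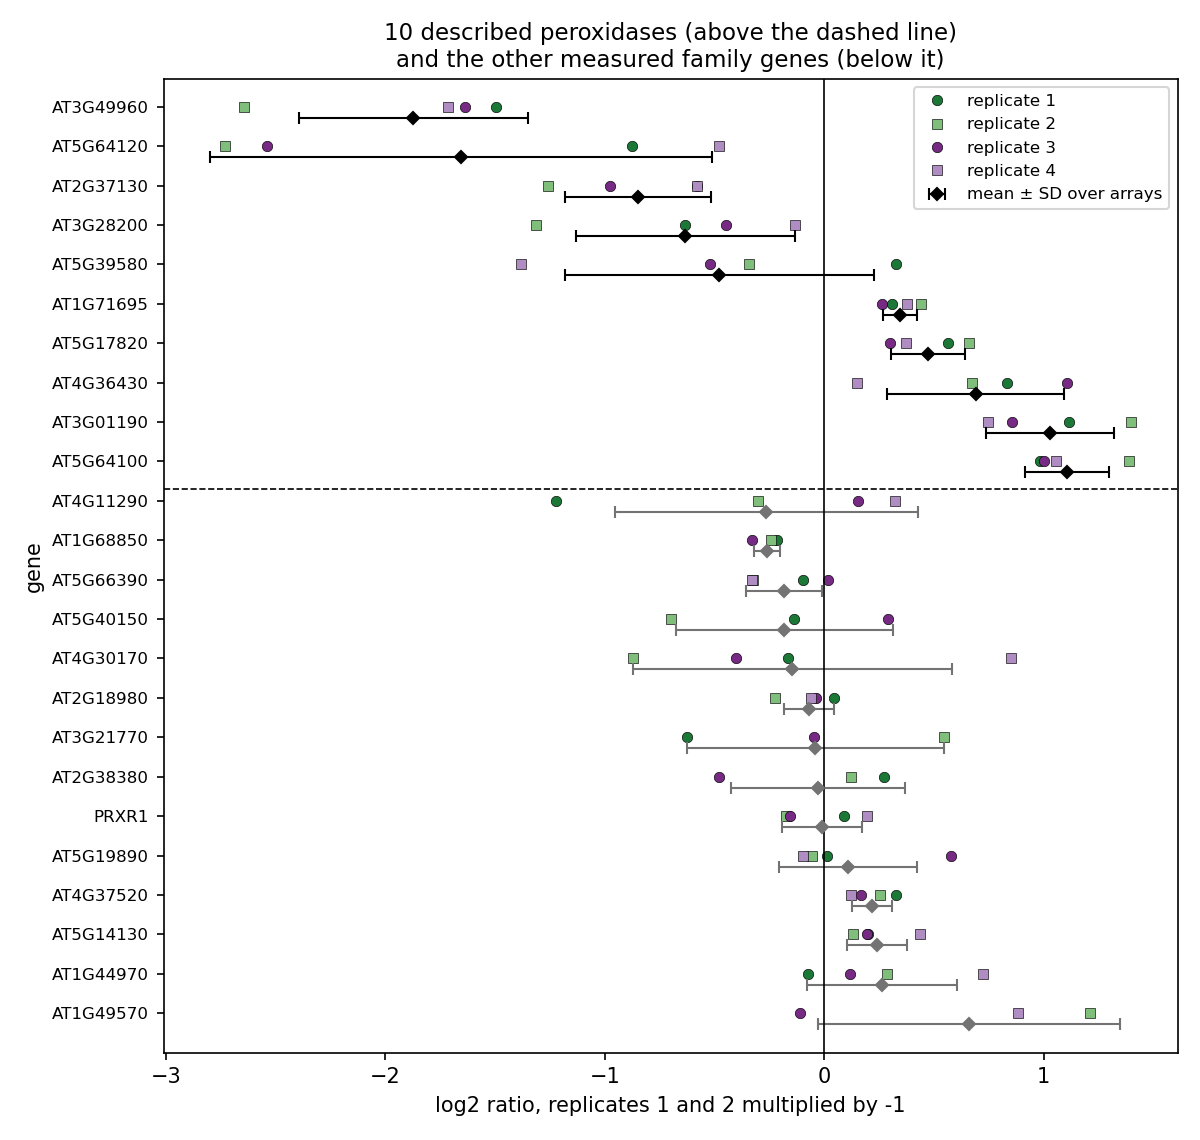
Log2 ratio per array with replicates 1 and 2 multiplied by -1 (horizontal axis) for the 10 described peroxidases above the dashed line and the 14 other named family genes below it, each set ordered by its mean. Diamonds with bars are the mean ± SD over the arrays. All points lie on 1 side of 0 for 9 of the 10 upper genes, which were chosen by these ratios. Among the lower ones this holds for AT1G68850 (3 arrays), AT4G37520 and AT5G14130. Of all 16577 features with 4 values, 10.9% were positive and 10.7% negative on every array after turning.

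Few genes that act beside the peroxidases could be named on the array, and the rest may lie among its unnamed probes. Of 29 genes for the production and removal of hydrogen peroxide, the substrate of these enzymes, 2 were named on the array. Both were chloroplast ascorbate peroxidases that remove hydrogen peroxide. Of the 2, 0 passed the adjusted threshold, where 0 of all 24153 features did. TAPX, the thylakoid form, read -0.22, -0.32, 0.08 and 0.996 on replicates 1 to 4 as deposited and had a turned mean of 0.40 ± 0.41 (SD, n = 4). SAPX, the stromal form, read -1.01, -0.52, -0.09 and 0.25 and had 0.42 ± 0.46 turned (SD, n = 4). As deposited they had 0.14 ± 0.60 and -0.34 ± 0.54 (SD, n = 4 each), so both lay on the side of AT5G64100 when turned and on different sides as deposited.

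Of 17 extensin and Casparian strip genes, whose wall proteins include peroxidase substrates, 1 could be named on the array. It did not pass the adjusted threshold, where 0 of all 24153 features did. HRGP1, a hydroxyproline-rich wall protein gene, was positive on all 4 arrays as deposited, with 0.18 ± 0.10, and had 0.03 ± 0.23 turned (SD, n = 4). None of 22 monolignol synthesis and laccase genes had a named probe, and HY5 itself was not analysed here.

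In RNA of mixed cells, fewer cells of a type and less RNA per cell cannot be told apart. Of 15 root and root hair markers 1 could be named on the array, PYK10, the root beta-glucosidase gene. It had 0.10 ± 0.20 as deposited and 0.10 ± 0.21 turned (SD, n = 4). Of 24 green shoot markers 4 could be named, all antenna genes, with means between -0.38 and 0.19 turned and between -0.14 and 0.09 as deposited. LHCB4.2 changed sign with the dyes in the order of AT3G49960, at 0.41, 0.53, -0.25 and -0.34 on replicates 1 to 4, and LHB1B2, LHCB4.1 and LHCB4.3 did not. The part of root or shoot content in the peroxidase ratios was not tested.

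For each of the 10 genes, the nearest of 1184 named genes outside the family was found by Euclidean distance over the 4 deposited ratios. AT3G49960 was nearest to tny (AT5G25810), an AP2/ERF transcription factor gene, at a distance of 0.771, with ratios of 1.65, 2.44, -0.92 and -1.84 on replicates 1 to 4. AT5G64120 had the most distant nearest gene of the 10, AT1G76600 at 1.29. That gene had the same order of signs, at 1.52, 2.61, -1.53 and -0.93 on replicates 1 to 4. Such distances can grow with the size of the ratios, which were not scaled. AT5G64100 and AT3G01190 shared the nearest gene AT3G23940, at 0.462 and 0.289, which read -0.95, -1.17, 0.81 and 0.70.

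Distances for the other 6 genes lay between 0.125 and 0.469. AT1G71695 was nearest to the lectin gene JAL34 (AT3G16460) at 0.125, AT2G37130 to AT1G21400 at 0.179 and AT5G17820 to AT1G12800 at 0.224. AT5G39580 was nearest to AT3G15070 at 0.241, AT3G28200 to AT2G17660 at 0.295 and AT4G36430 to AT1G05140 at 0.469. Apart from AT3G15070, each of these nearest genes changed sign with the dyes, which a search over the same 4 ratios favours. This is a likeness over 4 arrays only.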

How the data were processed

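The deposited log2 ratios, 1 per probe and array for 27648 probes on 4 arrays, were the only data used. The submitters' processing notes name limma. Normalization, spot filter, direction and the base of the logarithm (read as 2) are not given in the sources. Without intensities, dim and saturated spots could not be set apart. GEO's platform annotation, which can be old, paired 2032 probes with 1 gene and 644 with several, and 24972 are unnamed here. Symbols were updated by Entrez ID in a TAIR10.1 gene table, which held 2029 of the 2032. Probes of a gene were averaged per array. Names were withheld from 26 genes of which 3 or more probes shared 1 accession, among them AT3G32980, a family locus with 4 probes.

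Features on at least 3 arrays were fitted with limma 3.58.1 in R 4.3.3 (lmFit, eBayes, intercept only, two-sided, Benjamini-Hochberg), tested on simulated data first. The 10 members and all lists were chosen with earlier results of these data known. All measured list genes, and each member's nearest gene, are named. Alternatives covered arrays left out, empty cells, moderation, scaling, probes and dye. The arrays are called biological replicates by the submitters, and their number limits the precision.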

Additional observations from a re-analysis of the deposited data

Results flagged for a closer look

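In 5 of 54 sets of 4 values, Dixon's gap test set 1 array apart, where chance picks about 1 set in 20. None of the 5 belonged to the 10 peroxidases. AT2G18980 was at 0.226 on replicate 2 as deposited, against -0.061 to -0.036 on the others. AT4G11290 was at 1.22 on replicate 1 as deposited, against 0.15 to 0.32. On the turned scale AT5G19890 was at 0.576 on replicate 3, against -0.097 to 0.010. The root marker PYK10 (AT3G09260) was at 0.406 on replicate 4 in both readings, against -0.029 to 0.040 as deposited and -0.040 to 0.029 turned.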

How the results depend on the processing

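Each array already sets hy5 against wild type, so no further pairing was possible. In limma, 0 features passed the adjusted threshold under each of the 10 alternatives in both readings. The count at an unadjusted p under 0.05 stayed within 1.5 times, except the turned 2122, which became 1316 without replicate 2. The number of members with 1 sign on every array was 0 as deposited and 9 with replicates 1 and 2 turned. With each array left out it was 0 to 1 as deposited and 9 to 10 turned, and under other rules for probes and scaling 0 and 9. Of 98 member means recomputed under alternatives in each reading, 27 changed sign as deposited and 0 turned. The members were chosen by these ratios, so this contrast was largely built in and gives scale only. Genes with 4 values of 1 sign cannot change it with arrays left out or with 1 dye orientation alone. As deposited, genes that change sign with the dyes must differ in sign between the dye orientations. Of the other 14 family genes, 3 kept 1 sign as deposited and 3 turned. Among these, AT2G38380, AT5G40150 and AT1G68850 had values on 3 arrays only. Of all features with 4 values, 8.83% were positive and 10.3% negative on every array as deposited. Turned, these shares were 10.9% and 10.7%. The limit set by dim spots is unknown without intensities.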
